A study of Mus musculus with 5 samples.

Results

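The distal calcium transport genes are 6 named genes of the late distal nephron: Trpv5, Calb1, S100g, Slc8a1, Atp2b1 and Klk1. They were chosen by name, and their rows were read in both deposited tables, which together list 22980 genes. All 6 were listed in both tables. The data were counts of unique molecular identifiers (UMIs, each standing for 1 captured RNA molecule) in mouse kidney; each of the 5 groups was 1 library, and the libraries held 17542 barcodes in all. The UUO library held nuclei from a kidney 14 days after unilateral ureteral obstruction, an operation that ties off the ureter and leads to tubule injury and scarring, run on the 10x droplet system. The healthy 10x library held nuclei from healthy kidney on the same system. A Drop-seq library held whole cells freed by enzymes from healthy kidney, and sNucDrop-seq and DroNc-seq libraries held nuclei from healthy kidney. Strain is given in the labels' protocol only for the dissociated kidney (C57BL/6), and the sources used here do not state age, sex or the number of animals per library.

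In the distal convoluted tubule (DCT) and the connecting tubule (CNT), calcium is taken back from the urine through the cells. It enters through the apical channel encoded by Trpv5, is carried across the cytosol by the calbindins encoded by Calb1 (calbindin-D28k) and S100g (calbindin-D9k), and leaves on the blood side through the sodium-calcium exchanger encoded by Slc8a1 and the plasma membrane calcium pump encoded by Atp2b1. Parathyroid hormone and active vitamin D increase this route, and tissue kallikrein, the protease encoded by Klk1 and secreted by the connecting tubule, is known to raise TRPV5 at the cell surface.

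Counts were summed over all barcodes with one of the authors' cell labels in one library and scaled to all UMIs of that sum as CPM, the usual unit for comparing sums of unequal depth. The CNT label was on 529 UUO nuclei, 139 healthy 10x nuclei, 97 Drop-seq cells, 161 sNucDrop-seq nuclei and 117 DroNc-seq nuclei. The DCT label was on 625 UUO nuclei, 185 healthy 10x nuclei, 146 Drop-seq cells, 131 sNucDrop-seq nuclei and 133 DroNc-seq nuclei. The median barcode held between 1055 UMIs in the UUO library and 1630 UMIs in Drop-seq. With 1 library per group no difference has a replicate check and no test was made. Every interval is an exact 95% interval that covers counting error only. A gene was taken as measured in a comparison where its 2 sums held at least 20 counts, and as higher or lower where it was at least 2-fold apart. The libraries differ in sex-linked transcripts: Xist was at 0.405 CPM and Y-linked genes at 619 CPM in the UUO library, against 1321 and 3.73 CPM in healthy 10x nuclei. Xist was also at 0 in Drop-seq and sNucDrop-seq and at 1309 CPM in DroNc-seq. UUO and this difference cannot be told apart in the 10x pair. The labels of the UUO and healthy libraries were also drawn in separate annotations. The UUO and healthy 10x libraries shared 23 barcodes, and Drop-seq and sNucDrop-seq shared 1.

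The CNT and DCT labels were set against each other by their defining genes. Slc12a3, the sodium-chloride cotransporter that defines the DCT, was at 1026 CPM in UUO DCT nuclei, above 30.5 CPM in UUO CNT nuclei and 15.1 CPM in UUO proximal tubule nuclei. In healthy 10x nuclei it was at 13544 CPM in DCT, 3924 CPM in CNT and 421 CPM in proximal tubule. Scnn1b, a subunit of the sodium channel of the connecting tubule and collecting duct, was at 134 CPM in UUO CNT nuclei, against 40.7 CPM in UUO DCT nuclei, and at 524 CPM in healthy 10x CNT nuclei, against 18.6 CPM in healthy 10x DCT nuclei. CNT and DCT were thus told from each other in both libraries, at lower levels in UUO. The CD-PC label, of collecting duct principal cells, was not set apart from CNT alike in the 2 libraries. A list of 8 markers of CNT and principal cells summed to 7081 CPM in healthy 10x CD-PC nuclei, against 2014 CPM in CNT nuclei. In UUO the order was reversed, with 408.5 CPM in CD-PC nuclei and 523 CPM in CNT nuclei. Pvalb, a calcium-binding protein of the early DCT, had 0 counts in UUO DCT nuclei and 255 counts, or 950 CPM, in healthy 10x DCT nuclei. In the other healthy nucleus libraries Pvalb was much lower in DCT than in healthy 10x, at 48.2 CPM in sNucDrop-seq (10 counts) and 54.4 CPM in DroNc-seq (16 counts), while Drop-seq DCT cells held 774 CPM.

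In healthy kidney, 4 of the 6 genes had their highest level in the CNT label in each of the 4 healthy libraries: Trpv5, Calb1, Slc8a1 and Klk1. S100g was highest in CNT in 3 of them, and Atp2b1 was spread over many labels. The interval of the top label overlapped that of the next for Trpv5 in Drop-seq, for Klk1 in healthy 10x and sNucDrop-seq, and for S100g in healthy 10x. The plot of levels by library shows these patterns beside the proximal tubule, which is not a site of this transport route.

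**Figure D1:**
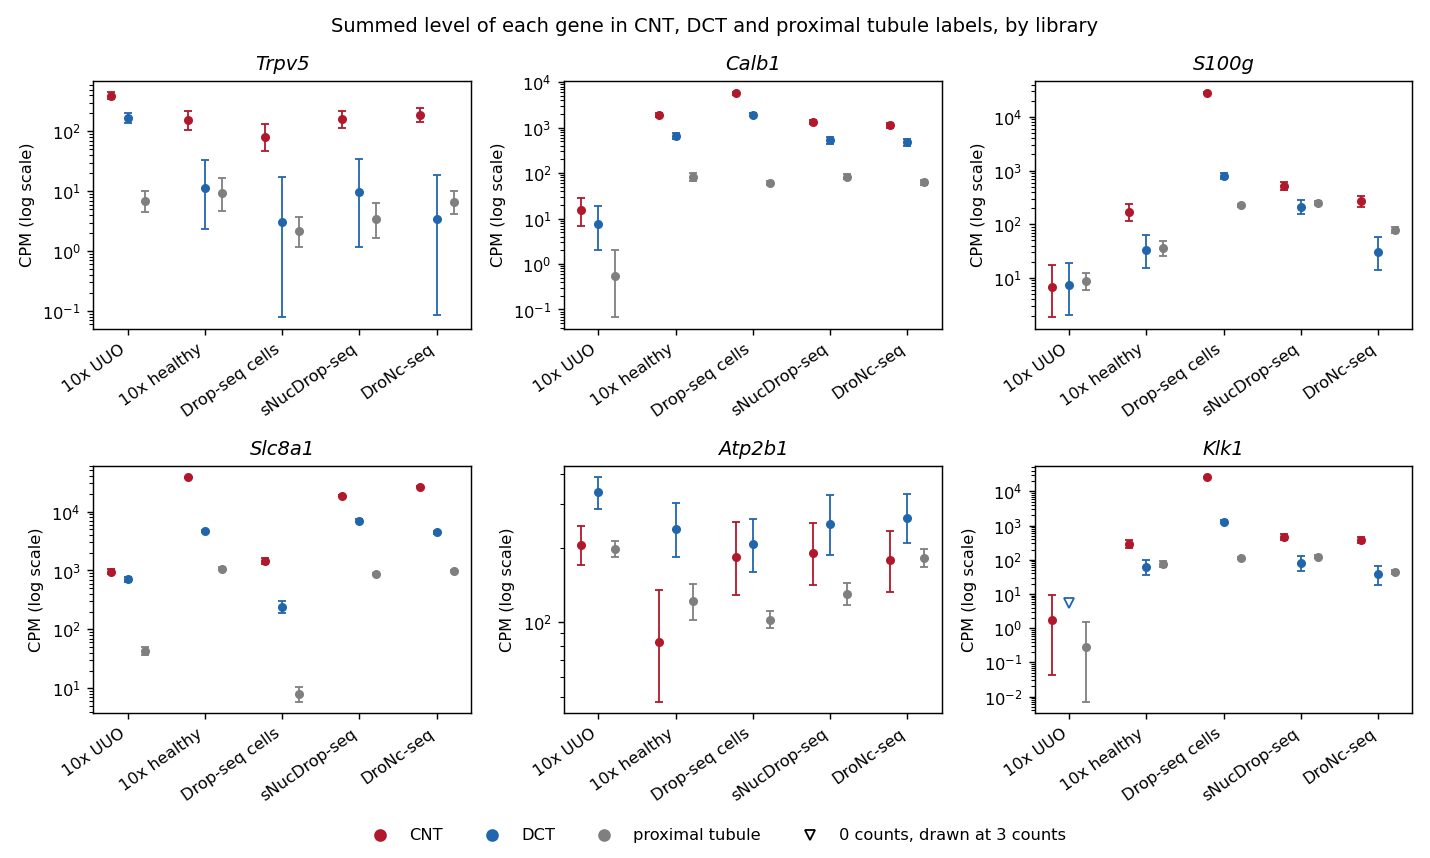
Each panel is 1 gene, and each point is its summed level in CPM on a log axis in CNT (red), DCT (blue) or proximal tubule (grey) nuclei or cells of 1 library, with an exact 95% counting interval; open arrows mark 0 counts, drawn at 3 counts. In CNT, Calb1, S100g, Slc8a1 and Klk1 are lower in UUO than in healthy 10x nuclei and Trpv5 is higher, and the healthy libraries put CNT above DCT for all but Atp2b1.

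Trpv5, the channel through which calcium enters, was at 156 CPM in CNT nuclei of the healthy 10x library (30 counts; 105 to 222), 81.5 CPM in Drop-seq CNT cells (16 counts), 159 CPM in sNucDrop-seq nuclei (40 counts) and 188 CPM in DroNc-seq nuclei (55 counts). In DCT it had 3 counts in healthy 10x, 1 in Drop-seq, 2 in sNucDrop-seq and 1 in DroNc-seq, or between 3.08 and 11.2 CPM. The proximal tubule labels, where the gene should be absent, were at 2.21 to 9.26 CPM, so the DCT levels of Trpv5 in healthy kidney could not be told from background. CNT stood above DCT by a log2 ratio of 3.80 (2.12 to 6.16) in healthy 10x nuclei, 4.04 (2.10 to 7.14) in sNucDrop-seq nuclei and 5.79 (3.25 to 11.12) in DroNc-seq nuclei. Its close relative Trpv6, named after its values were seen, had 2 counts in the whole Drop-seq library and 12 in sNucDrop-seq, and was listed at 0 in DroNc-seq and healthy 10x.

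Calb1, which buffers and ferries calcium in the cytosol, stepped down from CNT to DCT in each healthy library. It was at 1926 CPM in CNT and 663 CPM in DCT of healthy 10x nuclei, 5636 and 1939 CPM in Drop-seq cells, 1345 and 526 CPM in sNucDrop-seq nuclei, and 1120 and 476 CPM in DroNc-seq nuclei. The CNT over DCT log2 ratio was 1.54 (1.28 to 1.80), 1.54 (1.40 to 1.68), 1.35 (1.04 to 1.68) and 1.23 (0.94 to 1.53) in the same order of libraries. Proximal tubule barcodes held 61.2 to 83.1 CPM of Calb1.

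S100g, the smaller calbindin, was at 166 CPM in CNT and 33.5 CPM in DCT of healthy 10x nuclei, 28047 and 798 CPM in Drop-seq cells, 525 and 212 CPM in sNucDrop-seq nuclei, and 271 and 30.6 CPM in DroNc-seq nuclei. CNT was higher than DCT in all 4 healthy libraries, the log2 ratio being lowest in sNucDrop-seq (1.31, 0.80 to 1.83) and highest in Drop-seq (5.13, 4.95 to 5.32). In sNucDrop-seq the LH(DL) label held more S100g (945 CPM, 755 to 1168) than CNT, and the intervals do not overlap. The proximal tubule held 36.2, 226, 252 and 79.1 CPM in healthy 10x, Drop-seq, sNucDrop-seq and DroNc-seq, so that in DCT nuclei S100g was no higher than in proximal tubule.

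Slc8a1, the exchanger that moves calcium out toward the blood, was at 37888 CPM in CNT and 4665 CPM in DCT of healthy 10x nuclei, 1466 and 240 CPM in Drop-seq cells, 18615 and 7023 CPM in sNucDrop-seq nuclei, and 26339 and 4475 CPM in DroNc-seq nuclei. In each of the 3 healthy nucleus libraries CNT came first and DCT second, with intervals that do not overlap each other or the next label. The median CNT nucleus held 39 Slc8a1 UMIs in healthy 10x, 14 in sNucDrop-seq and 38 in DroNc-seq. Proximal tubule nuclei held 872 to 1066 CPM. After each barcode was thinned to 500 UMIs, 97.1% of healthy 10x CNT nuclei had an Slc8a1 UMI, against 20.1% of healthy 10x proximal tubule nuclei.

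Atp2b1, the calcium pump, did not follow the other 5. It was at 83.1 CPM in CNT and 239 CPM in DCT of healthy 10x nuclei, 183 and 207 CPM in Drop-seq, 191 and 251 CPM in sNucDrop-seq, and 178 and 265 CPM in DroNc-seq. The CNT over DCT log2 ratio was below 0 in all 4 healthy libraries, but only the healthy 10x value of -1.52 (-2.41 to -0.71) was past 2-fold. The intervals hold 0 in Drop-seq (-0.17, -0.80 to 0.43) and sNucDrop-seq (-0.39, -0.99 to 0.20), and DroNc-seq was at -0.57 (-1.11 to -0.05). In DroNc-seq its highest level was in the macrophage label, 826 CPM (653 to 1031), with an interval above that of the next label. Macrophages also came first in sNucDrop-seq and healthy 10x, where the intervals overlap and the healthy 10x level rests on 2 counts in 3 nuclei. DCT was among the 3 highest labels in each healthy library. Between 78.7% and 89.3% of all Atp2b1 counts of a healthy library lay outside CNT and DCT. In the healthy nucleus libraries this share did not set Atp2b1 apart, at 69.6% to 87% for S100g and 72.6% to 82% for Klk1. In Drop-seq it was 86.5% for Atp2b1, against 22.9% for S100g and 18.7% for Klk1.

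Klk1 was at 296 CPM in CNT and 63.3 CPM in DCT of healthy 10x nuclei, 25914 and 1310 CPM in Drop-seq cells, 469 and 82.0 CPM in sNucDrop-seq nuclei, and 387 and 37.4 CPM in DroNc-seq nuclei. CNT was higher in all 4, by 2.22 (1.42 to 3.10) in healthy 10x to 4.31 (4.16 to 4.45) in Drop-seq on the log2 scale. In Drop-seq the 20 IC-A cells held 5205 CPM and the 16 IC-B cells 4113 CPM of Klk1, with 2891 and 3794 CPM of S100g. Those intercalated-cell levels were above the Drop-seq proximal tubule levels of 112 CPM for Klk1 and 226 CPM for S100g, whereas in healthy 10x nuclei IC-A and IC-B held 107 and 59.6 CPM of Klk1, beside 75.8 CPM in proximal tubule. Klk1 has 13 coding paralogs in the mouse annotation whose longest transcripts are 58.8% to 82.9% identical to it, and the sources used here do not say how reads that match several of them were counted. Drop-seq held 206 counts of Klk1b3 and 94 of Klk1b5, beside 6782 of Klk1.

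Counted against all genes, the CNT over DCT pattern was uncommon. The 6 genes were chosen by name as genes of the late distal nephron, with earlier results of these data known. The labels are the authors' annotation of these same barcodes. The shares below are therefore a description and no independent support for the pattern. Of 4232 measured genes in healthy 10x nuclei, 7.16% were at least 2-fold higher in CNT, against 5 of the 6 calcium transport genes. The share of all genes was 6.04% in Drop-seq, where 4 of 5 measured members were higher, 8.71% in sNucDrop-seq with 5 of 6, and 7.59% in DroNc-seq with 5 of 6. Of the measured members only Atp2b1 was not higher in CNT in each of these libraries. In the other direction 7.56% of all genes were at least 2-fold lower in CNT of healthy 10x nuclei, against 1 member, Atp2b1. No member was lower in CNT in Drop-seq (7.24% of all genes), sNucDrop-seq (4.99%) or DroNc-seq (5.31%).

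Across the 13 labels of the healthy 10x library, the genes whose level (log2 of CPM plus 10) was most like Trpv5 were Slc2a9, Egfem1 and Kl, with Pearson r of 0.80, 0.71 and 0.69. Those most like Calb1 were Kl, Phactr1 and Pkig (0.89, 0.87 and 0.87), and those most like Slc8a1 were Sgms2, Vdr and Kl (0.77, 0.73 and 0.70). Kl encodes klotho, a co-receptor known to act on TRPV5, and Vdr encodes the vitamin D receptor. These correlations were all positive in sNucDrop-seq and DroNc-seq too, with r between 0.44 and 0.87. The genes most like S100g (Rheb, Atp11b and Clasp2), Atp2b1 (Cep350, Gtf3c1 and Xrn2) and Klk1 (Vapa, Arfrp1 and Sp3) in healthy 10x had r between -0.52 and 0.43 in the other nucleus libraries, so their likeness was not shared between libraries. Labels share a library and its depth, and the healthy 10x macrophage label rests on 3 nuclei.

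Promoters were taken from RefSeq (build GRCm38.p6), in which 5 of the 6 genes had an entry: Trpv5, S100g, Slc8a1, Atp2b1 and Klk1. All 5 were at least 2-fold apart between UUO and healthy 10x CNT nuclei, Trpv5 and Atp2b1 higher and S100g, Slc8a1 and Klk1 lower. The 250 bases before the start are shown for the 4 genes with 1 entry each, 5′ to 3′ on the gene's strand. Capitals mark matches on either strand to TATAAA (the TATA box), AGGTCA (a half-site of nuclear receptors) or GGTTCA (a half-site found in vitamin D response elements).
Trpv5 (chr6:41680724-41680973, minus strand): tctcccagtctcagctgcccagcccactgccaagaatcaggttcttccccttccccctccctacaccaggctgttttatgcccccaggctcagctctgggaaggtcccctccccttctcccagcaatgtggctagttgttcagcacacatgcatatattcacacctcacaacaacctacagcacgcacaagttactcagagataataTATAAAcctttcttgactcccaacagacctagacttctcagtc
S100g (chrX:162964600-162964849, minus strand): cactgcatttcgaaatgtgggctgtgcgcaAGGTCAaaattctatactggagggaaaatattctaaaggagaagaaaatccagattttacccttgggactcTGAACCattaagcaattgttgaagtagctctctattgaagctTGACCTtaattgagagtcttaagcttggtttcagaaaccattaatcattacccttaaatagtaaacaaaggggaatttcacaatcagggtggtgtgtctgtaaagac
Slc8a1 (chr17:81738388-81738637, minus strand): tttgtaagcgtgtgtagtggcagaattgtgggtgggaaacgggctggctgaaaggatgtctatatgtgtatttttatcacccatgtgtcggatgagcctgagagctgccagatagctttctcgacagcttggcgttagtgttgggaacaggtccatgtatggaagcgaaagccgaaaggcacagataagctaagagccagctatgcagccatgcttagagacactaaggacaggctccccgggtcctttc
Klk1 (chr7:44225110-44225359, plus strand): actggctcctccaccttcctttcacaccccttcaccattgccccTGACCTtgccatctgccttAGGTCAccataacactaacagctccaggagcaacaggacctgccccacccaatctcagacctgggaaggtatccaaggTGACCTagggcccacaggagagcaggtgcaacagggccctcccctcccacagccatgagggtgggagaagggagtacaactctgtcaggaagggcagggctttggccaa
Trpv5 held 1 match, the TATA box letters beginning 43 bases before the RefSeq start. The GENCODE annotation places the start of this minus strand gene farther upstream, at 41680769, so by it the letters lie within the gene. S100g held 2 AGGTCA matches, beginning 220 and 107 bases before the start, and 1 GGTTCA match beginning 149 bases before it. Klk1 held 3 AGGTCA matches, beginning 206, 187 and 109 bases before the start. Slc8a1 held no match to any of them in this window, and neither did Atp2b1, which has 2 entries, in either of its windows. No matches overlapped. Of 32841 RefSeq promoters, 12.4% hold TATAAA, 14% AGGTCA and 8.84% GGTTCA in the same 250 bases. A match is a run of letters only, and no binding was measured.

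UUO was compared with healthy 10x nuclei within each label. In CNT, Calb1, S100g, Slc8a1 and Klk1 were lower and Trpv5 and Atp2b1 higher; in DCT, Calb1 and Slc8a1 were lower, Trpv5 was higher, and S100g and Klk1 had too few counts to be measured. Of 6055 genes measured in CNT, 13.2% were at least 2-fold lower, against 4 of 6 members, and 24.9% at least 2-fold higher, against 2 of 6. Of 6108 genes measured in DCT, 14.4% were lower, against 2 of 4 measured members, and 20.9% higher, against 1 of 4. The median of all genes was 0.23 in CNT and 0.17 in DCT on the log2 scale. With sNucDrop-seq nuclei as reference, in which Xist was at 0, the CNT log2 ratios were 1.32 for Trpv5, -6.46 for Calb1, -6.28 for S100g, -4.28 for Slc8a1, 0.10 for Atp2b1 and -8.12 for Klk1. That library was made on another platform than UUO, so these ratios also hold a platform difference. S100g in proximal tubule, for example, was at 252 CPM in sNucDrop-seq and 36.2 CPM in healthy 10x. The part of platform or of sex-linked transcripts in these ratios was not tested.

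**Figure D2:**
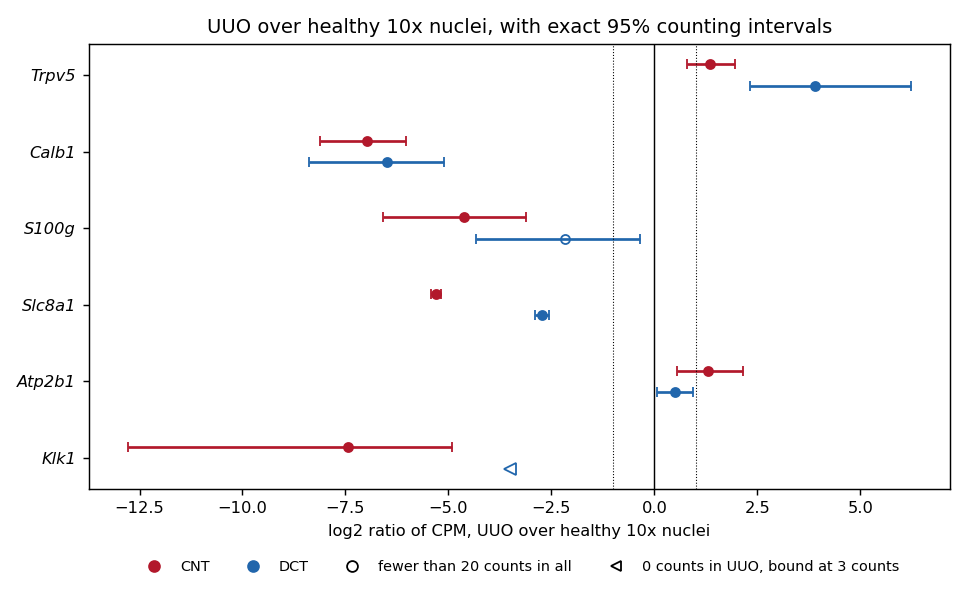
Points are the log2 ratio of CPM in UUO over healthy 10x nuclei for the 6 genes in CNT (red) and DCT (blue), with exact 95% counting intervals; dotted lines mark 2-fold, open circles fewer than 20 counts in all, and the open arrow the bound for 0 UUO counts. Calb1 lies at -6.98 in CNT and -6.48 in DCT, and Trpv5 at 1.35 and 3.91.

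Trpv5 had 234 counts in UUO CNT nuclei, or 396 CPM (347 to 450), against 30 counts and 156 CPM (105 to 222) in healthy 10x CNT nuclei. In DCT it had 91 counts in UUO nuclei, or 169 CPM (136 to 207), against 3 counts and 11.2 CPM (2.31 to 32.7) in healthy 10x nuclei. The log2 ratio was 1.35 (0.79 to 1.95) in CNT and 3.91 (2.32 to 6.22) in DCT. UUO CNT also lay above the other 3 healthy CNT levels, of which the highest was 188 CPM (142 to 245). At an even depth of 500 UMIs, 13.6% of UUO CNT nuclei (10.7 to 17.0) had a Trpv5 UMI, against 8.70% of healthy 10x CNT nuclei (4.57 to 14.7), and these intervals overlap. Before thinning they were 21.6% of UUO nuclei and 15.1% of healthy 10x nuclei. In DCT the shares were 6.01% of UUO nuclei (4.12 to 8.42), against 0.552% of healthy 10x nuclei (0.0140 to 3.04), with 0.431% of UUO and 0.772% of healthy 10x proximal tubule nuclei as background. Before thinning the DCT shares were 8.96% of UUO nuclei and 1.08% of healthy 10x nuclei. The highest CNT nucleus held 13 UMIs in UUO and 4 in healthy 10x.

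The CNT over DCT step of Trpv5 was smaller in UUO, 1.23 (0.88 to 1.60), than in healthy 10x nuclei, 3.80 (2.12 to 6.16). In UUO 5.42% of all genes were at least 2-fold higher in CNT than in DCT, against 1 of 3 measured members, Trpv5, and 3.75% at least 2-fold lower, against none of the 3. Trpv6, the other channel of this type, had 18 counts in UUO CNT nuclei and 11 in UUO DCT nuclei, and 102 in the whole UUO library, while it was listed at 0 in healthy 10x.

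Calb1 was almost absent in UUO. It had 9 counts in UUO CNT nuclei, or 15.2 CPM (6.97 to 28.9), against 371 counts and 1926 CPM (1735 to 2132) in healthy 10x CNT nuclei, a log2 ratio of -6.98 (-8.12 to -6.04), or 126-fold lower. In DCT it had 4 counts in UUO nuclei, or 7.41 CPM, against 178 counts and 663 CPM in healthy 10x nuclei, a log2 ratio of -6.48 (-8.38 to -5.10). After thinning, 1.03% of UUO CNT nuclei had a Calb1 UMI, against 47.1% of healthy 10x CNT nuclei, beside 0.0431% of UUO and 2.47% of healthy 10x proximal tubule nuclei. Before thinning the CNT shares were 1.51% in UUO and 64.0% in healthy 10x. Those UUO levels are below the Calb1 level of healthy 10x proximal tubule (80.8 CPM), while UUO proximal tubule was at 0.550 CPM. The whole UUO library of 6147 nuclei held 22 Calb1 counts, against 776 counts in the 2084 healthy 10x nuclei.

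S100g had 4 counts in UUO CNT nuclei, or 6.77 CPM (1.84 to 17.3), against 32 counts and 166 CPM (114 to 235) in healthy 10x CNT nuclei, a log2 ratio of -4.62 (-6.58 to -3.12). The UUO CNT level was close to that of UUO proximal tubule (8.80 CPM), so no CNT enrichment of S100g could be seen in UUO. In DCT it had 4 counts in UUO nuclei and 9 in healthy 10x nuclei. The S100g gene lies wholly within Ctps2, which runs on the other strand, and the sources used here do not say whether counting used strand.

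Slc8a1 had 565 counts in UUO CNT nuclei, or 956 CPM (879 to 1039), against 7299 counts and 37888 CPM (37024 to 38768) in healthy 10x CNT nuclei. This was 39.6-fold lower, a log2 ratio of -5.31 (-5.43 to -5.18). In DCT it was at 708 CPM in UUO nuclei (382 counts), against 4665 CPM in healthy 10x nuclei (1252 counts), a log2 ratio of -2.72 (-2.89 to -2.55). The median CNT nucleus held 1 Slc8a1 UMI in UUO, against 39 in healthy 10x, and the highest held 11, against 221. After thinning, 32.6% of UUO CNT nuclei had an Slc8a1 UMI (28.5 to 37.0), against 97.1% of healthy 10x CNT nuclei (92.7 to 99.2), beside 2.16% of UUO and 20.1% of healthy 10x proximal tubule nuclei. Before thinning the CNT shares were 52.4% in UUO and 98.6% in healthy 10x. The CNT over DCT log2 ratio was 0.43 (0.24 to 0.63) in UUO, against 3.02 (2.94 to 3.11) in healthy 10x nuclei. Slc8a1 also overlaps 2 genes on the opposite strand, AC122399.1 and Gm11096, whose reads could not be told from its own without strand.

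Atp2b1 was at 205 CPM in UUO CNT nuclei (121 counts; 170 to 245), against 83.1 CPM in healthy 10x CNT nuclei (16 counts; 47.5 to 135), a log2 ratio of 1.30 (0.54 to 2.15). The other healthy CNT levels, 178 to 191 CPM, overlapped the UUO level, and with sNucDrop-seq or DroNc-seq nuclei in place of healthy 10x nuclei the log2 ratio was 0.10 or 0.20. In DCT the pump was at 335 CPM in UUO nuclei (181 counts; 288 to 388), against 239 CPM in healthy 10x nuclei (64 counts; 184 to 305), a log2 ratio of 0.49 (0.07 to 0.93). The size of its difference was smaller than that of the exchanger in both labels.

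Klk1 had 1 count in UUO CNT nuclei, or 1.69 CPM (0.0429 to 9.43), against 57 counts and 296 CPM (224 to 383) in healthy 10x CNT nuclei, a log2 ratio of -7.45 (-12.78 to -4.91). In UUO DCT nuclei it had 0 counts, against 17 counts and 63.3 CPM in healthy 10x DCT nuclei. Those DCT counts are too few to call, and the exact 95% bound on their log2 ratio was -3.05. The whole UUO library held 6 Klk1 counts, against 321 in healthy 10x nuclei. Klk1 also overlaps the pseudogene Gm10109, on the opposite strand, over 2062 bases, and the same limit of strand applies.

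Several measures moved with these differences between the UUO and healthy 10x labels, and their part in the results was not tested. A list of 8 DCT markers summed to 3052 CPM in UUO DCT nuclei, against 26536 CPM in healthy 10x DCT nuclei. A list of 8 markers of CNT and principal cells summed to 523 CPM in UUO CNT nuclei, against 2014 CPM in healthy 10x CNT nuclei, with Avpr2 at 0 in both. All 7 genes of a list of injured tubule markers were detected in UUO CNT nuclei, where they summed to 3886 CPM, against 171 CPM from 2 detected genes in healthy 10x CNT nuclei (Havcr1, Lcn2, Vcam1, Krt8 and Cd44 at 0). In DCT that list summed to 4210 CPM in UUO nuclei, against 153 CPM in healthy 10x nuclei, where Havcr1, Lcn2, Vcam1 and Cd44 were at 0. Most of the UUO sum was Spp1, with 3233 CPM in CNT and 3619 CPM in DCT. Proximal tubule markers, 5 of 8 detected in UUO CNT nuclei, summed to 134 CPM there, against 1215 CPM from 7 of 8 in healthy 10x CNT nuclei. Ascending limb markers summed to 139 CPM in UUO CNT nuclei (5 of 6 detected), against 862 CPM in healthy 10x CNT nuclei (6 of 6). The median CNT nucleus held 935 UMIs in UUO and 1319 in healthy 10x.

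Counts of Calb1, S100g, Slc8a1 and Klk1 were also lower in UUO in labels outside CNT and DCT, though not each gene was measured in each label. Whether those counts came from the labelled cells or from background RNA was not tested. Marker lists foreign to CNT did not all move alike in CNT nuclei. Macrophage markers summed to 76.2 CPM in UUO, against 15.6 CPM in healthy 10x, and fibroblast and pericyte markers to 55.9 against 10.4 CPM. Podocyte markers were at 47.4 against 26 CPM, endothelium at 113.4 against 103.8 CPM and intercalated at 40.6 against 51.9 CPM. The proximal tubule markers in CNT nuclei summed to 134 CPM in UUO, against 1215 CPM in healthy 10x. In proximal tubule nuclei themselves, they summed to 1064.6 CPM in UUO, against 14639.5 CPM in healthy 10x. The ascending limb markers summed to 139 CPM in UUO CNT nuclei, against 862 CPM in healthy 10x CNT nuclei. In proximal tubule nuclei Slc8a1 was at 43.7 CPM in UUO, against 1066 CPM in healthy 10x, a log2 ratio of -4.61 (-4.85 to -4.37), where 20.7% of 11395 genes were at least 2-fold lower. It was also lower in UUO in TAL against the healthy LH(AL) label (-3.72), podocytes (-4.81), endothelium (-2.01), CD-PC (-1.36) and IC (-1.11), where 17.2%, 15.9%, 11.7%, 13.3% and 12.4% of all genes were at least 2-fold lower. Calb1 was at 0.550 CPM in UUO proximal tubule, against 80.8 CPM in healthy 10x, and at 3.58 CPM in UUO TAL, against 64.6 CPM in healthy LH(AL). S100g was at 8.80 CPM in UUO proximal tubule, against 36.2 CPM in healthy 10x (-2.04, -2.75 to -1.35), and at 9.54 CPM in UUO TAL, against 33.8 CPM in healthy LH(AL) (-1.83, -3.20 to -0.61). In IC (-0.57, -2.15 to 0.97), endothelium (-0.91, -3.52 to 2.48) and CD-PC (-1.37, -4.50 to 2.21) S100g had too few counts to be measured, and these intervals hold 0. Klk1 had 1 count in UUO TAL, against 87 counts in healthy LH(AL).

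Trpv5 and Atp2b1 differed from this. Trpv5 was at 71.4 CPM in UUO IC nuclei (19 counts), against 4.97 CPM in healthy 10x IC-A and IC-B nuclei (1 count), a log2 ratio of 3.85 (1.19 to 9.22), and 16% of all genes were at least 2-fold higher in that comparison. The UUO level was not particular to IC. UUO Fib.1 nuclei held 50.3 CPM of Trpv5 (14 counts, 27.5 to 84.3), which overlaps the IC interval (43 to 111.6). UUO CD-PC nuclei held 27.1 CPM and endothelium 23.6 CPM. In proximal tubule Trpv5 was at 6.88 CPM in UUO, against 9.26 CPM in healthy 10x (-0.43, -1.5 to 0.74). Atp2b1 was at 331 CPM in UUO TAL, against 87.7 CPM in healthy LH(AL), a log2 ratio of 1.92 (1.5 to 2.36), where 16% of all genes were at least 2-fold higher. In endothelium its log2 ratio was 1.03 (-0.09 to 2.40), from 67 counts in UUO against 7 in healthy 10x, where 22.7% of all genes were higher. It differed by less than 2-fold in proximal tubule (0.71), where 14.6% of all genes and none of the 6 members were at least 2-fold higher, and in IC (0.57), podocytes (0.50) and CD-PC (-0.35).

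**Figure D3:**
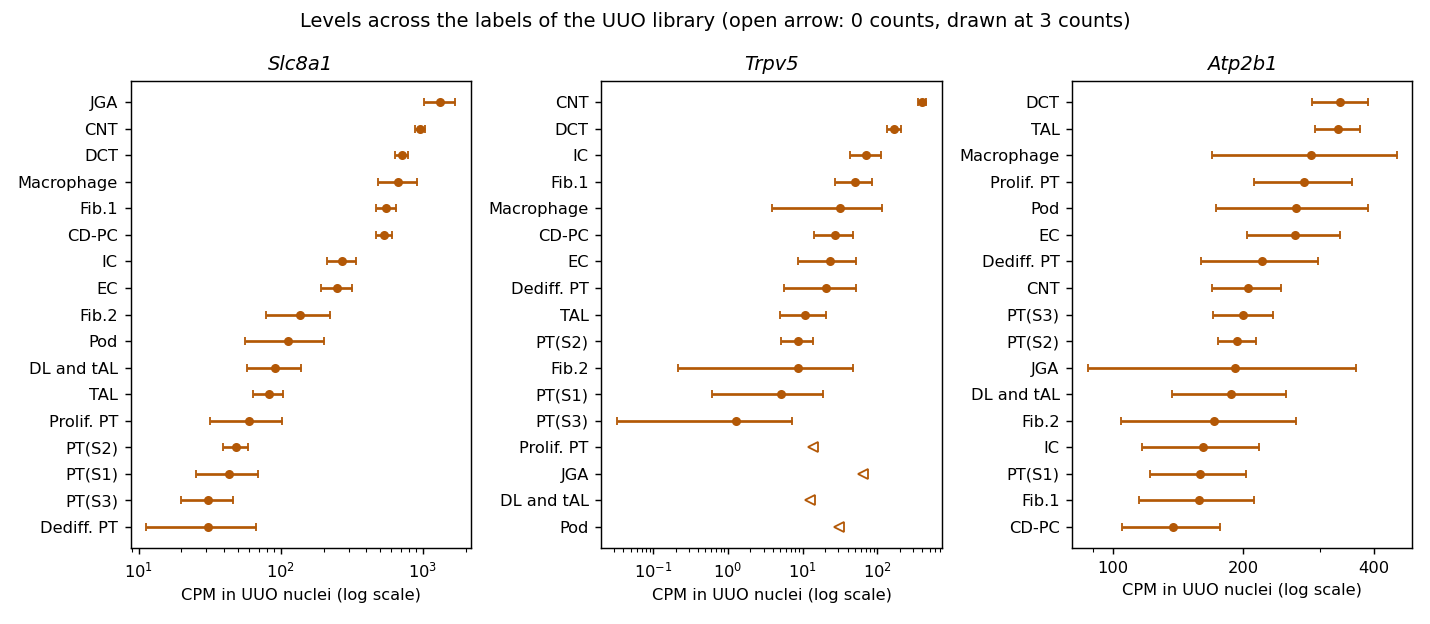
Summed level in CPM, on a log axis, of Slc8a1, Trpv5 and Atp2b1 in each label of the UUO library, with exact 95% counting intervals and open arrows for 0 counts drawn at 3 counts. Slc8a1 is at 1320 CPM in JGA and 956 CPM in CNT, Trpv5 is highest in CNT at 396 CPM, and Atp2b1 lies between 138 and 335 CPM in every label.

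Within the UUO library the order of labels differed by gene. Trpv5 still stood highest in CNT, then DCT, with intervals that do not overlap each other or the next label, IC at 71.4 CPM. Slc8a1 was at 1320 CPM (1012 to 1692) in the JGA label, 956 CPM in CNT, 708 CPM in DCT and 668 CPM (482 to 903) in macrophages. The JGA and CNT intervals overlap, as do those of DCT and macrophages. For Calb1, S100g and Klk1 neighbouring labels could not be ordered, since all their intervals at the top overlap.

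Single nuclei showed how the genes lay together. Among UUO CNT nuclei, the 114 with a Trpv5 UMI held 1273 CPM of Slc8a1, against 844 CPM in the 415 without one, with a median of 1032 and 886 UMIs. Among UUO DCT nuclei the 56 with a Trpv5 UMI held 1460 CPM of Slc8a1, against 635 CPM in the 569 without. Calb1 was at 12.9 CPM (2 counts) in UUO CNT nuclei with a Trpv5 UMI and 16.1 CPM (7 counts) in those without, while in healthy 10x CNT it was at 1918 CPM with and 1927 CPM without. After thinning to 500 UMIs, 52.7% of UUO CNT nuclei had a UMI of none of the 6 genes, against 0.725% of healthy 10x CNT nuclei. In DCT 62.2% of UUO nuclei had none, against 35.9% of healthy 10x nuclei.

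The DCT label is not uniform in Slc8a1. After thinning to 500 UMIs, 14 of 516 UUO DCT nuclei (2.71%) had 3 or more Slc8a1 UMIs, 107 had 1 or 2 and 395 had none, against 34 of 181 healthy 10x DCT nuclei (18.8%) with 3 or more, 53 with 1 or 2 and 94 with none. The shares with 3 or more were 42% in sNucDrop-seq and 15.8% in DroNc-seq. These are ranges of a single gene, chosen after its values were seen, and not cell types. In UUO 24 nuclei had exactly 2 UMIs and 9 exactly 3, and 11 healthy 10x nuclei had exactly 2 UMIs and 8 exactly 3. Healthy 10x DCT nuclei with 3 or more held 1334 CPM of Calb1 (1032 to 1697), against 460 CPM (352 to 591) in those with none, and DroNc-seq gave 1633 and 243 CPM. In sNucDrop-seq the values were 625 and 253 CPM. Nuclei with 1 or 2 held 579 CPM of Calb1 in healthy 10x, 216 CPM in DroNc-seq and 676 CPM in sNucDrop-seq. Calb1 thus did not rise at each step in DroNc-seq or sNucDrop-seq. Slc12a3 was at 13701 CPM in healthy 10x nuclei with 3 or more and 13370 CPM in those with none, with overlapping intervals. In UUO the 2 values were 1825 and 996 CPM.

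In UUO DCT nuclei Trpv5 was at 104 CPM (74.3 to 142) in nuclei with no Slc8a1 UMI after thinning, 347 CPM (240 to 484) in those with 1 or 2, and 476 CPM (175 to 1036, 6 counts) in those with 3 or more. The first of these intervals lies below the other two, which overlap. Calb1 was at 7.80, 10.2 and 0 CPM in the same nuclei. The 3 counts of Trpv5 in healthy 10x DCT nuclei all lay in nuclei with 3 or more.

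**Figure D4:**
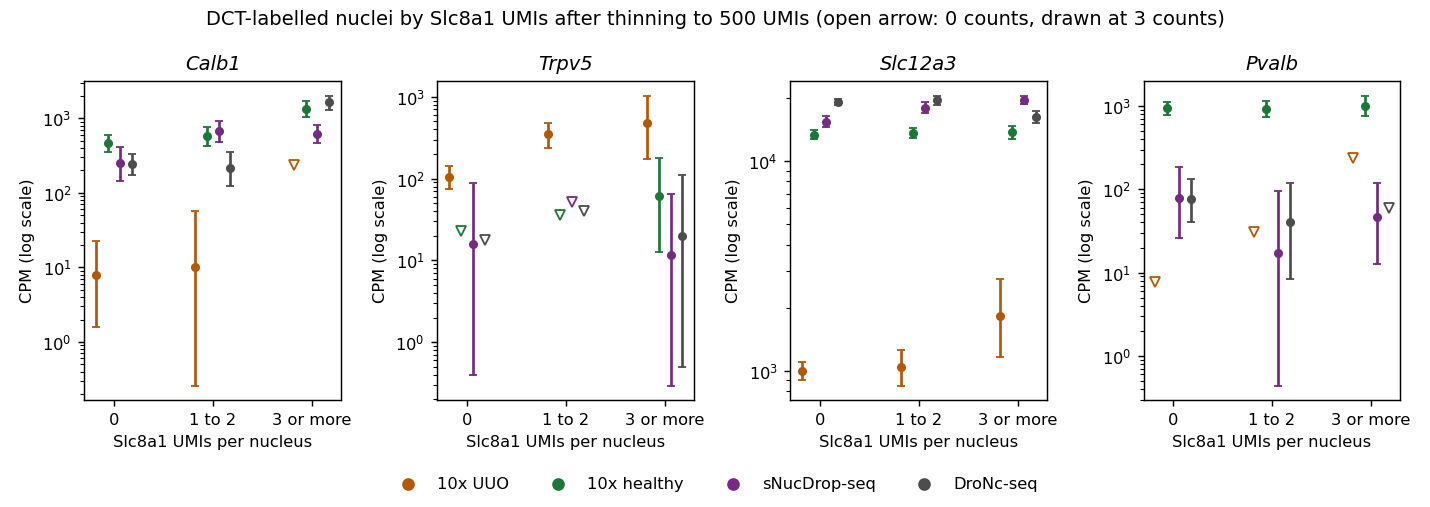
DCT-labelled nuclei of 4 libraries grouped by their Slc8a1 UMIs after thinning to 500 UMIs, with the summed level of Calb1, Trpv5, Slc12a3 and Pvalb in CPM on a log axis, exact 95% counting intervals, and open arrows for 0 counts drawn at 3 counts. Calb1 is higher with 3 or more Slc8a1 UMIs in healthy 10x (1334 against 460 CPM), and Trpv5 is above 100 CPM in every UUO group.

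The rest of the pathway was described from 5 lists. Of 11 genes for calcium entry and its regulators, 8 were measured in CNT, with 5 higher and 2 lower in UUO, where 24.9% of all genes were higher and 13.2% lower, and a median log2 ratio of 1.26, beside 0.23 for all genes. In DCT 4 of 8 were higher and 2 lower, where 20.9% of all genes were higher and 14.4% lower, with a median of 0.75, beside 0.17 for all genes. The median in CNT did not change with S100a10, which has 0 counts in healthy 10x CNT, placed at its bound. Anxa2, a partner of S100a10 in carrying TRPV5 to the membrane, was at 181 CPM in UUO CNT nuclei, against 5.19 CPM in healthy 10x CNT nuclei (5.12, 2.62 to 10.44), and S100a10 had 37 counts there, against 0. Calm2, a calmodulin gene, was at 279 CPM in UUO CNT, against 130 CPM in healthy 10x CNT (1.11, 0.49 to 1.77). Kl was at 23.7 CPM in UUO CNT, against 1583 CPM in healthy 10x CNT (-6.06, -6.95 to -5.29), and at 20.4 CPM in UUO DCT, against 402 CPM in healthy 10x DCT. Umod, uromodulin, was lower too (-3.20 in CNT and -2.80 in DCT), but it belongs to the neighbouring ascending limb.

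Among 10 paralogs of the extrusion genes only Atp2b2 and Atp2b4, which encode related calcium pumps, were measured, and both were lower in UUO in both labels, where 13.2% of all genes in CNT and 14.4% in DCT were lower. Atp2b2 was at 5.08 CPM in UUO CNT nuclei (3 counts), against 161 CPM in healthy 10x CNT nuclei, a log2 ratio of -4.99 (-7.34 to -3.31). Atp2b4 was at 15.2 CPM in UUO CNT, against 202 CPM in healthy 10x CNT (-3.73, -4.96 to -2.66), and in DCT at 29.6 CPM in UUO, against 89.4 CPM in healthy 10x (-1.59). Both had log2 ratios below 0 in both labels, as Slc8a1 did, while that of Atp2b1 was above 0.

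Of 10 genes of calciotropic hormone signalling, among which Kl is listed again, 6 were measured; all 6 were lower in UUO CNT, against 13.2% of all genes, and 5 in UUO DCT, against 14.4%. None was at least 2-fold higher, against 24.9% of all genes in CNT and 20.9% in DCT. The median log2 ratio was -2.07 in CNT and -1.44 in DCT, beside 0.23 and 0.17 for all genes. Vdr was at 62.6 CPM in UUO CNT, against 1324 CPM in healthy 10x CNT (-4.40, -4.94 to -3.90), and at 169 CPM in UUO DCT, against 607 CPM in healthy 10x DCT (-1.85). Pth1r, the parathyroid hormone receptor, was at 38.9 CPM in UUO CNT, against 187 CPM in healthy 10x CNT (-2.26), and in DCT at 191 CPM in UUO, against 134 CPM in healthy 10x (0.51, -0.05 to 1.10). Fgfr1, the receptor that works with klotho, was lower in both (-1.44 and -1.11).

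Of 11 genes for magnesium and paracellular cation transport, 5 were measured, with 3 lower in CNT, against 13.2% of all genes, and 4 lower in DCT, against 14.4%. None was higher, against 24.9% in CNT and 20.9% in DCT. The median log2 ratio was -1.69 in CNT and -1.67 in DCT, beside 0.23 and 0.17 for all genes. Trpm6, the apical magnesium channel, was at 173 CPM in UUO CNT, against 555 CPM in healthy 10x CNT (-1.69), and at 430 CPM in UUO DCT, against 1371 CPM in healthy 10x DCT (-1.67). Egf, the growth factor known to raise TRPM6 activity, was at 16.7 CPM in UUO DCT, against 3156 CPM in healthy 10x DCT (-7.56, -8.70 to -6.63). Cnnm2 was lower in both labels (-2.26 and -2.35), and Trpm7 differed by -0.30 (-0.62 to 0.03) in CNT and -1.67 (-1.82 to -1.52) in DCT.

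Of 10 genes for calcium handling at the endoplasmic reticulum, 6 were measured. In CNT 3 were higher and 2 lower, where 24.9% of all genes were higher and 13.2% lower. In DCT 3 were higher and 1 lower, where 20.9% of all genes were higher and 14.4% lower. The median log2 ratio was 0.58 in CNT and 0.90 in DCT, or 0.81 in DCT with Itpr3, at 26 counts in UUO against 0, placed at its bound, beside 0.23 and 0.17 for all genes. The 3 higher genes were the sensors of stored calcium, Stim1 and Stim2, and the release channel gene Itpr3. Stim1 was at 176 CPM in UUO CNT, against 41.5 CPM in healthy 10x CNT (2.08, 1.05 to 3.33), and Stim2 at 234 CPM in UUO CNT, against 62.3 CPM in healthy 10x CNT (1.91, 1.06 to 2.89). In DCT the 2 log2 ratios were 2.48 and 2.28. The pump Atp2a2 and the channel Itpr2 were lower in CNT (-1.03 and -1.22).

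Whole cells were then compared with nuclei of healthy kidney, Drop-seq with sNucDrop-seq, in the same labels. In CNT, Calb1, S100g and Klk1 were higher in cells, Slc8a1 was lower, and Trpv5 and Atp2b1 were within 2-fold. Of 4472 genes, 22.5% were at least 2-fold higher in CNT cells, against 3 of 6 members, and 48% lower, against 1 of 6. In DCT the shares were 28% and 42.6% of 4779 genes, against 3 and 1 of 5 measured members. The median of all genes was -0.87 in CNT and -0.65 in DCT, and scaling by trimmed means (TMM) raised every log2 ratio by 0.52 in CNT and 0.66 in DCT. With it, 28.3% of all genes were higher and 37.1% lower in CNT, and 36.6% higher and 29.6% lower in DCT. Relative to the median of all genes, Trpv5 in CNT lay near it and Atp2b1 above it. Measures of RNA content moved with this comparison, and their part in the results was not tested. Mitochondrial genes gave 24.9% of UMIs in Drop-seq CNT cells, against 0.203% in sNucDrop-seq CNT nuclei, and Malat1, a nuclear RNA, 1.39% against 14.3%. The DCT values were 26.9% against 0.190% and 1.29% against 16.3%. The injured tubule list summed to 4557 CPM in Drop-seq CNT cells (4 of 7 detected, with Havcr1, Lcn2 and Cd44 at 0), against 135 CPM in sNucDrop-seq CNT nuclei (3 of 7), and Spp1 made up 4450 CPM of the sum in cells. That healthy sum is above the 3886 CPM of UUO CNT nuclei.

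S100g was at 28047 CPM in Drop-seq CNT cells (5509 counts), against 525 CPM in sNucDrop-seq CNT nuclei (132 counts), a log2 ratio of 5.74 (5.49 to 6.00). Klk1 was at 25914 CPM in cells (5090 counts), against 469 CPM in nuclei (118 counts), a log2 ratio of 5.79 (5.52 to 6.06). Calb1 was at 5636 CPM in cells, against 1345 CPM in nuclei, a log2 ratio of 2.07 (1.89 to 2.25). Slc8a1 was at 1466 CPM in cells, against 18615 CPM in nuclei, a log2 ratio of -3.67 (-3.84 to -3.49). Trpv5 was at 81.5 CPM in cells, against 159 CPM in nuclei (-0.97, -1.90 to -0.10), and Atp2b1 at 183 CPM in cells, against 191 CPM in nuclei (-0.06, -0.72 to 0.59). The same order held in DCT for the 5 measured members except that S100g (1.91) lay beside Calb1 (1.88), below Klk1 (4.00), with Atp2b1 at -0.28 and Slc8a1 at -4.87.

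The genes differ in length. S100g (chrX:162961992-162964599, minus strand) spans 2.6 kb and Klk1 (chr7:44225360-44229618, plus strand) 4.3 kb in the GENCODE annotation of GRCm38, with 18.4% and 25.3% of the span in exons. Calb1 (chr4:15881264-15908064, plus strand) spans 26.8 kb and Trpv5 (chr6:41652173-41680769, minus strand) 28.6 kb. Atp2b1 (chr10:98914406-99026143, plus strand) spans 111.7 kb, and Slc8a1 (chr17:81373105-81738377, minus strand) 365.3 kb, of which 5.15% is exonic. The sources used here do not say whether intronic reads were counted, and the part of gene length in these ratios was not tested.

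**Figure D5:**
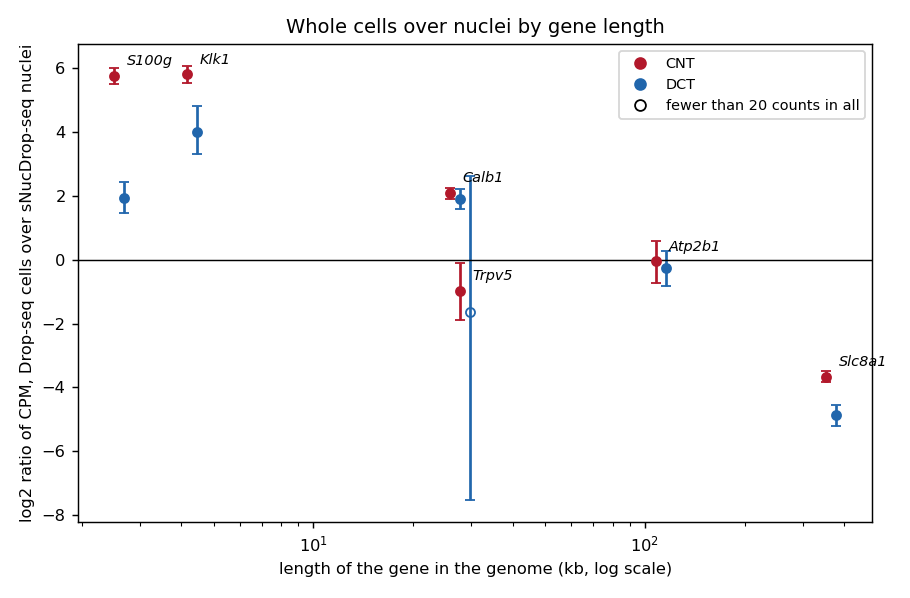
Log2 ratio of CPM in Drop-seq cells over sNucDrop-seq nuclei against the length of each gene in kb on a log axis, for CNT (red) and DCT (blue), with exact 95% counting intervals; points of a gene are set slightly apart, and the open circle has fewer than 20 counts in all. The short genes S100g and Klk1 are at 5.74 and 5.79 in CNT, and the longest, Slc8a1, is at -3.67.

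After thinning to 500 UMIs, 93.8% of Drop-seq CNT cells had an S100g UMI, against 25.5% of sNucDrop-seq CNT nuclei, and 91.8% of cells had a Klk1 UMI, against 24.8% of nuclei. Slc8a1 was seen in 48.5% of cells, against 88.2% of nuclei. Before thinning the shares of cells and nuclei were 96.9% and 52.2% for S100g, 93.8% and 42.2% for Klk1, and 73.2% and 96.3% for Slc8a1. Proximal tubule gives the background for these shares: 7.71% of cells and 11.5% of nuclei for S100g, 4.10% and 5.60% for Klk1, and 0.364% of cells and 26.0% of nuclei for Slc8a1. Trpv5 was seen in 5.15% of CNT cells (1.69 to 11.6), against 7.45% of CNT nuclei (3.91 to 12.7), a difference not detectable at this depth (15.5% and 16.8% before thinning).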

How the data were processed

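The UMI counts came as 2 deposited tables, 1 for the healthy libraries and 1 for UUO. They are raw counts made with zUMIs, according to the readme that the authors deposited, and the submitters' processing notes also name STAR 2.5.3a and mm10. Cell labels are the authors' deposited annotation, and all of its barcodes were kept, with no call of doublets. A damaged macrophage label was read as macrophage. Proximal tubule labels were summed, as were healthy IC-A and IC-B against UUO IC. The members and gene lists were chosen with earlier results of these data known. Counts were summed per label and library and scaled to CPM. Sums carry exact Poisson intervals, shares exact Clopper-Pearson intervals, and ratios an exact interval conditional on the total. The ratio interval was run on simulated Poisson counts, the model it assumes. That run holds no spread between nuclei or libraries and cannot show how the interval does with such spread. For shares, each barcode was thinned at random to 500 of its UMIs; 45 of 529 UUO and 1 of 139 healthy 10x CNT nuclei, and 109 of 625 UUO and 4 of 185 healthy 10x DCT nuclei, were too shallow and left out. Named genes were the 6 members, the 3 genes most like each (at least 200 counts), and per list up to 4 measured genes with the largest mean CPM plus any at least 4-fold apart. The work ran in Python 3.11.15 (scipy 1.17.1; pandas 2.3.3; numpy 2.4.6; plots in matplotlib 3.10.9), with TMM factors from edgeR 4.0.16 under R 4.3.3.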

Additional observations from a re-analysis of the deposited data

How the results depend on the processing

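No paired analysis was possible because each group has 1 library, and for the same reason no replicate could be left out. The results were computed again with median-of-ratios or TMM scaling, with Malat1, mitochondrial and ribosomal protein genes left out of the totals, with a mean of CPM over barcodes, with barcodes of at least 1000 UMIs, without barcodes above 3 label medians, at a minimum of 1 or 100 counts, after thinning to 300 or 1000 UMIs, against other nucleus libraries, and with CNT and DCT summed. No called value changed direction under any of them.

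In UUO CNT the number of members at least 2-fold lower was 2 at a minimum of 100 counts, and the number higher was 1 with sNucDrop-seq or DroNc-seq as reference or with CNT and DCT summed. In UUO DCT the number lower was 4 at a minimum of 1 count or with CNT and DCT summed, and the number higher was 0 at a minimum of 100 counts. The Trpv5 log2 ratio ranged between 1.07 and 2.01 in UUO CNT and between 2.01 and 5.63 in UUO DCT, Calb1 between -7.04 and -6.20 and between -7.14 and -5.40, and Slc8a1 between -5.54 and -4.28 and between -4.47 and -2.66. Atp2b1 ranged between 0.10 and 1.41 in UUO CNT. In Drop-seq CNT the number lower was 2 with a mean of CPM over barcodes, without the high barcodes or with DroNc-seq as reference, as Trpv5 then passed 2-fold. Atp2b1 in Drop-seq CNT ranged between -0.20 and 1.14, and so passed 2-fold in the higher direction. It was at 183 CPM in Drop-seq CNT cells, against 83.1 CPM in healthy 10x CNT nuclei. In Drop-seq DCT the number lower was 2 at a minimum of 1 count. For CNT over DCT, a minimum of 100 counts left 3 members higher in DroNc-seq and 2 higher and 0 lower in healthy 10x, and a minimum of 1 count gave 3 higher in UUO. The count minimums change only which genes are measured; for the other settings the cause was not tested. Leaving out labels under 20 barcodes, an alternative chosen after seeing the data, gave r of 0.55 to 0.77 for the genes most like S100g, Atp2b1 and Klk1. Spearman correlations for the genes most like each member were all positive, 0.38 to 0.87. Both measures used healthy 10x labels over which these genes had been picked by Pearson r from 3004 candidates. High values were therefore favoured in advance, and neither measure is an independent check. Low counts limit Trpv5 in healthy DCT and S100g and Klk1 in UUO.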
